A study of Mus musculus with 6 samples.

Results

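The cytosolic ribosomal protein genes were examined in primary mouse hepatocytes with and without interleukin-1β (IL-1β). They were the 93 of 23282 listed genes whose symbols begin with Rpl or Rps and a number, plus Rplp0, Rplp1, Rplp2 and Rpsa. The Rps6k kinases and Rps19bp1, which are no ribosomal proteins, were left out. The rule uses names and no measured value. By name, 46 are core genes of the large (60S) subunit, 31 are core genes of the small (40S) subunit, 10 are paralogs or retrogenes and 6 are pseudogenes. Hepatocytes isolated from the livers of C57BL6/N mice were left untreated (control, 3 samples) or received recombinant IL-1β protein for 24 h (IL-1β, 3 samples). The deposited design text gives 2 samples a group but names 3, and all 3 are in the table. RNA was read by QuantSeq 3′ mRNA-Seq, which samples the end of each polyadenylated transcript, in single-end reads of 75 nt. The labels do not say whether the samples came from separate mice, so p-values measure the spread between these samples, which may be technical.

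The ribosome joins a small subunit, which reads the mRNA, to a large subunit, which forms the peptide bond, and its proteins are made from some of the most abundant mRNAs of any cell. Most of these mRNAs begin with a 5′ terminal oligopyrimidine (TOP) tract, through which mTORC1 and the RNA-binding protein LARP1 set how well they are translated and kept. In the liver, IL-1β drives the acute-phase response, in which hepatocytes change the set of plasma proteins they make.

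The libraries held 9538741 to 11105408 counts, and the ribosomal RNA precursor Rn45s took 11.7 to 14.2% of control counts and 11.9 to 12.7% of IL-1β counts. All 12 hepatocyte markers were detected, with a summed level of 48131 to 50674 CPM (counts scaled by TMM to a common library size) in controls and 45349 to 46614 CPM after IL-1β. Of these markers, 9 fell, 1 rose with groups that overlapped, and 2 did not pass the test, while DESeq2 called 8 lower and 0 higher. Of 13 Kupffer cell and macrophage markers, 10 had enough counts to be tested and none passed (3 were higher at an unadjusted p under 0.05), with sums of 247 to 277 CPM in controls and 253 to 285 CPM after IL-1β. Endothelial markers summed to 87.5 to 94.1 CPM and 85.1 to 89.7 CPM (1 of 10 rose and 2 fell), stellate cell markers to 37.1 to 40.9 and 41.2 to 42.7 CPM (0 of 3 tested), and cholangiocyte markers to 315 to 329 and 236 to 239 CPM (1 of 2 tested fell). The 2 leukocyte markers tested summed to 1.79 to 3.95 CPM in controls and 3.96 to 8.27 CPM after IL-1β, and 1 rose, while Cd3e, Cd79a and S100a9 were at 0 counts in all libraries. The part of other cells in the values below was not tested. In these bulk samples, fewer cells of a type and less RNA per cell cannot be told apart.

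After 24 h of IL-1β, the fitted levels of all 90 tested ribosomal protein mRNAs lay between 0.929 and 1.23 times control, and 3 members rose. They were Rps20 and Rps12 of the small subunit and Rplp1 of the large subunit stalk, by 1.23, 1.18 and 1.12 times, and no member fell. The test was edgeR's quasi-likelihood test on the raw counts, with p adjusted by Benjamini-Hochberg over 11657 genes. Of the members 3.33% were called higher, while 6.97% of all tested genes were called higher and 6.44% lower. Which of these shares was the larger depended on the samples, since without control 1 it was 11.1% of members and 7.36% of all genes. At an unadjusted p under 0.05, 17 of the 90 members (18.9%) were higher and 0 lower, beside 11.5% and 12.01% of all genes, so that by this looser rule the share of higher members was above the background. DESeq2 also called 3 higher and 0 lower. The median log2 fold change was 0.077 over the 90 members and -0.0018 over all genes tested, and 84 of the 90 were above 0, against 49.6% of all genes. The members lay close together, with a standard deviation of log2 fold change of 0.066 against 0.53 over all genes. Their standard errors had a median of 0.068, against 0.14 over all genes. The 95% intervals of single members ran at their widest limits from 0.832 to 1.40 times the control level. The 3 members left untested had almost no reads: Rpl10l had none, Rpl39l had 1 in all 6 libraries together, and Rpl3l had 0 to 4 a library.

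**Figure D1:**
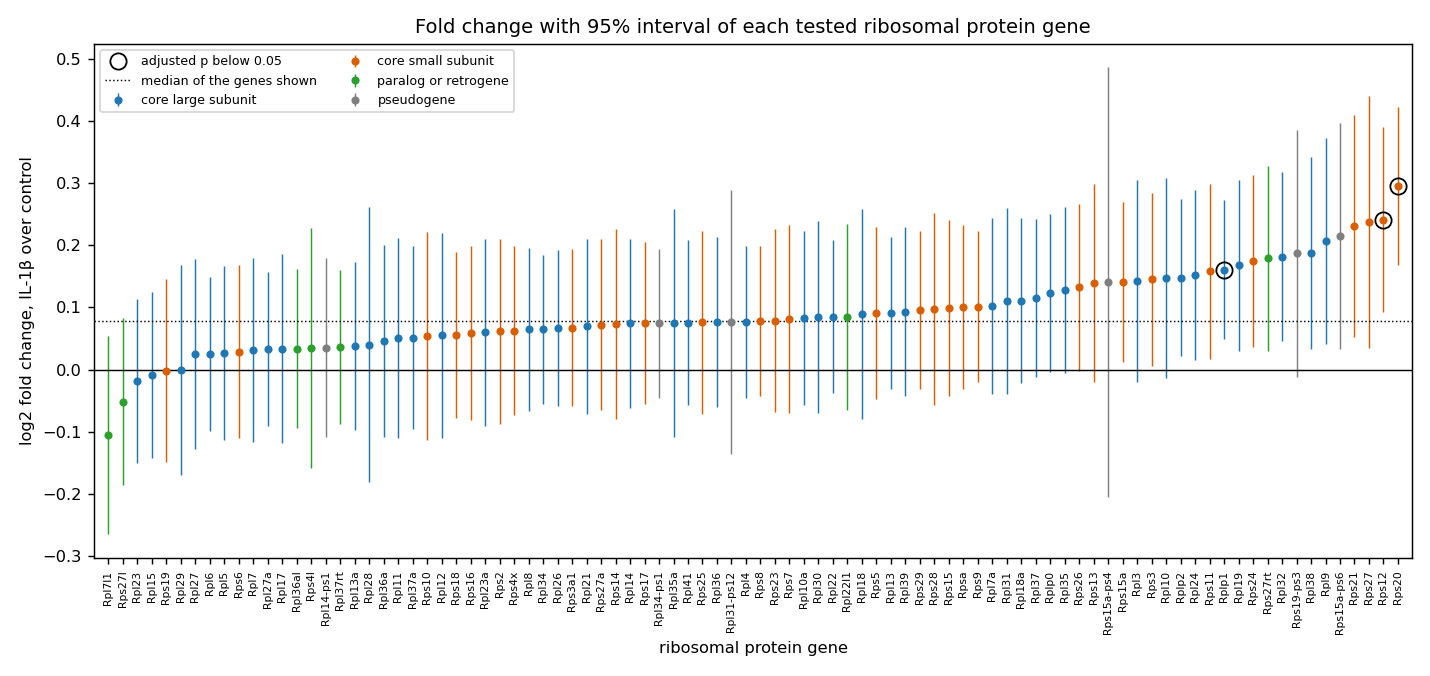
Each point is the log2 fold change (IL-1β over control) of a tested ribosomal protein gene with its 95% interval from edgeR, coloured by class and ordered by size. The dotted line marks the median of 0.077, rings mark Rplp1, Rps12 and Rps20, and only 6 of the 90 points lie below 0.

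The height of the set above 0 depended on how libraries were scaled. With total counts in place of TMM the median of the members was 0.023 and that of all genes -0.055, and 68 of 90 members were above 0. With the upper quartile the medians were 0.049 and -0.030. A change of scaling moves all genes alike, so the difference between both medians could hardly move with it. With 1 sample left out, that difference was between 0.064 (without IL-1β 3) and 0.10 (without IL-1β 2) on the log2 scale. Without regard to any model, all 3 IL-1β values exceeded all 3 control values in 24 of the 90 members, and in 0 the order was the opposite. Among all genes tested, 13.98% were separated upward and 14.2% downward. Scaled by total counts, 9 members were separated upward and 3 downward, beside 10.3% and 18.6% of all genes.

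Rps20 encodes a protein of the head of the small subunit and lies on the minus strand of chromosome 4 (mm10/GRCm38, chr4:3834473-3835600). Its levels were 1505, 1426 and 1420 CPM in the control samples and 1772, 1654 and 1914 CPM in the IL-1β samples. Every treated sample was above every control, and the lowest treated value stood clear of the highest control. The mean rose from 1451 ± 47.3 to 1780 ± 130 CPM (SD, n = 3 each), a log2 fold change of 0.30 (SE 0.061, adjusted p = 0.0013 from edgeR). An exact two-sided permutation test gave p = 0.1, the smallest that 3 samples against 3 allow. Rps20 was the only member called in all 15 alternative settings, with log2 fold changes of 0.24 to 0.35 and adjusted p up to 0.017.

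Rps12, a small subunit gene on the minus strand (chr10:23785183-23787209), was at 190, 177 and 161 CPM in controls and at 205, 204 and 214 CPM after IL-1β. The groups did not overlap, although control 1 came near the treated samples, which lay close together. Its means were 176 ± 14.5 and 208 ± 5.66 CPM (SD, n = 3 each), with a log2 fold change of 0.24 (SE 0.072, adjusted p = 0.025 from edgeR). It passed in 8 of the 15 alternative settings. The adjusted p was 0.066 without control 2, 0.17 without control 3, 0.065 without IL-1β 1, 0.061 without IL-1β 2 and 0.11 without IL-1β 3, with log2 fold changes of 0.18 to 0.26 in these fits.

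Rplp1, Rplp2 and Rplp0 together build the acidic stalk of the large subunit, where the GTPase translation factors bind. Rplp1 (chr9:61913283-61914510, minus strand) was at 3082, 3174 and 3135 CPM in controls and 3462, 3442 and 3596 CPM after IL-1β. All treated samples were higher than all controls, by a margin wider than the range of the controls. The log2 fold change was 0.16 (SE 0.054) and the adjusted p of 0.0496 lay at the edge of the threshold. It passed in 6 of the 15 alternative settings and was lost whichever sample was left out, at adjusted p from 0.061 (without control 1) to 0.14 (without IL-1β 3). Rplp2 was at 629, 664 and 657 CPM in controls and 716, 686 and 759 CPM after IL-1β (log2 fold change 0.15, SE 0.061, adjusted p = 0.13). Rplp0 was at 448, 473 and 478 CPM and then 492, 507 and 524 CPM (log2 fold change 0.12, SE 0.062, adjusted p = 0.23). In all 3 stalk genes the groups were separated upward, and of these Rplp0 and Rplp2 did not pass the test.

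**Figure D2:**
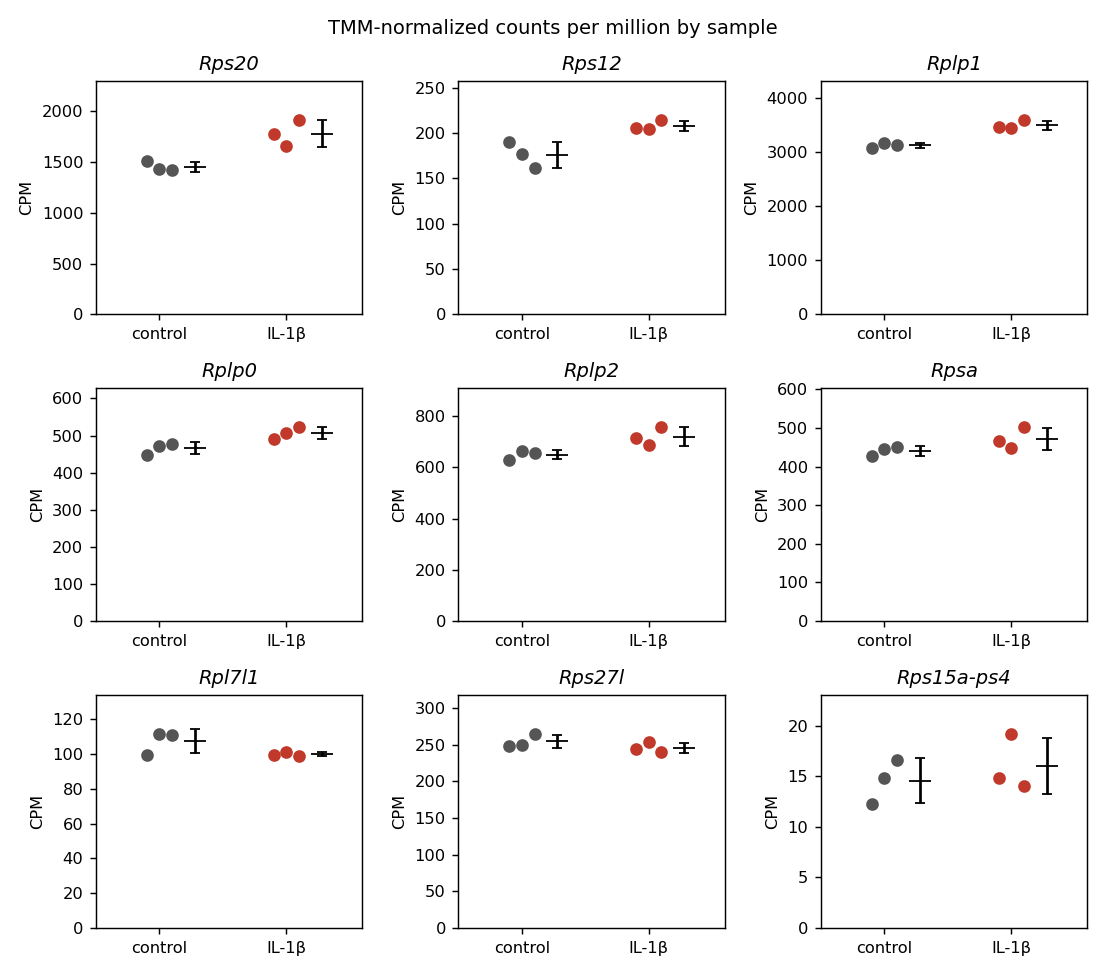
TMM-normalized CPM (y axis, linear, from 0) of 9 members in each control and IL-1β sample, with the mean and SD beside the points. The IL-1β points of Rps20, Rps12, Rplp1, Rplp0 and Rplp2 lie above all control points, while those of Rpsa, Rpl7l1, Rps27l and Rps15a-ps4 overlap with control.

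The number of members called rested on which samples were in the fit. It was 1 (Rps20) without control 2, without IL-1β 1, without IL-1β 2 or without IL-1β 3. It was 2 without control 3 (Rps20 and the pseudogene Rps15a-ps6). Without control 1 it was 10 of 90: Rps20, Rps12, Rps15a, Rps21, Rps24, Rps27, Rpl10, Rpl28, Rpl32 and Rpl38. Of all genes, 7.36% were called higher without control 1 and 5.16 to 5.98% in the other 5 fits. None was lower in any of these fits. Scaling by total counts or by the upper quartile left 1 (Rps20), beside 5.68 and 6.29% of all genes called higher.

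Among the fits with 1 sample left out, every member called without control 1, except Rps20, was called only in that fit. Of these, Rps21, Rps24 and Rpl28 are described here. Genes that enter in this way are bound to be high in control 1, so their values are given as a description. Rps21, Rps24 and Rpl28 were picked after their values were seen. Rps21 and Rps24 were also called from all 6 samples, both under no filter and under a replicate block, while Rpl28 was called in neither. Rps21, a small subunit gene, was at 143, 118 and 111 CPM in controls and 154, 133 and 149 CPM after IL-1β (log2 fold change 0.23, SE 0.087, adjusted p = 0.086). Rps24, also of the small subunit, was at 894, 783 and 786 CPM and then 935, 859 and 987 CPM (0.17, SE 0.067, adjusted p = 0.094). Rpl28 of the large subunit was at 539, 376 and 364 CPM and then 478, 372 and 466 CPM (0.040, SE 0.11, adjusted p = 0.89). In all 3, control 1 was the highest control and IL-1β 2 was the lowest treated sample. The same held for Rps12, Rps15a, Rps27, Rpl10, Rpl32 and Rpl38. Control 1 lay inside the treated range for Rps21 and Rps24 and above all treated samples for Rpl28.

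The members did not vary together in one direction within the groups. When the group means were removed, the leading axis of the 90 members held 68.0% of their remaining variance, with weights of 0.66, -0.17 and -0.48 in controls 1 to 3 and 0.33, -0.43 and 0.093 in IL-1β 1 to 3. Control 1 and control 3 thus stood at opposite ends, as did IL-1β 1 and IL-1β 2. Rpl28, Rps27, Rps21, Rpl18, Rpl3 and Rpl10 had high scores on this axis and were above the control mean in control 1. Rps15a-ps4, Rps15a-ps6, Rps14, Rps23 and Rpl5 had low scores and were below it in control 1. Control 1 was the highest control for 32 members and the lowest for 44, so it was not shifted as a whole. IL-1β 3 was the highest treated sample for 51 members and IL-1β 2 the lowest for 46. Over the 90 members, the score on this axis had a Pearson r of 0.18 with the GC content of the last 300 nt of the transcript and of 0.19 with the share of that end found in other genes, given as a description over genes measured in the same libraries.

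**Figure D3:**
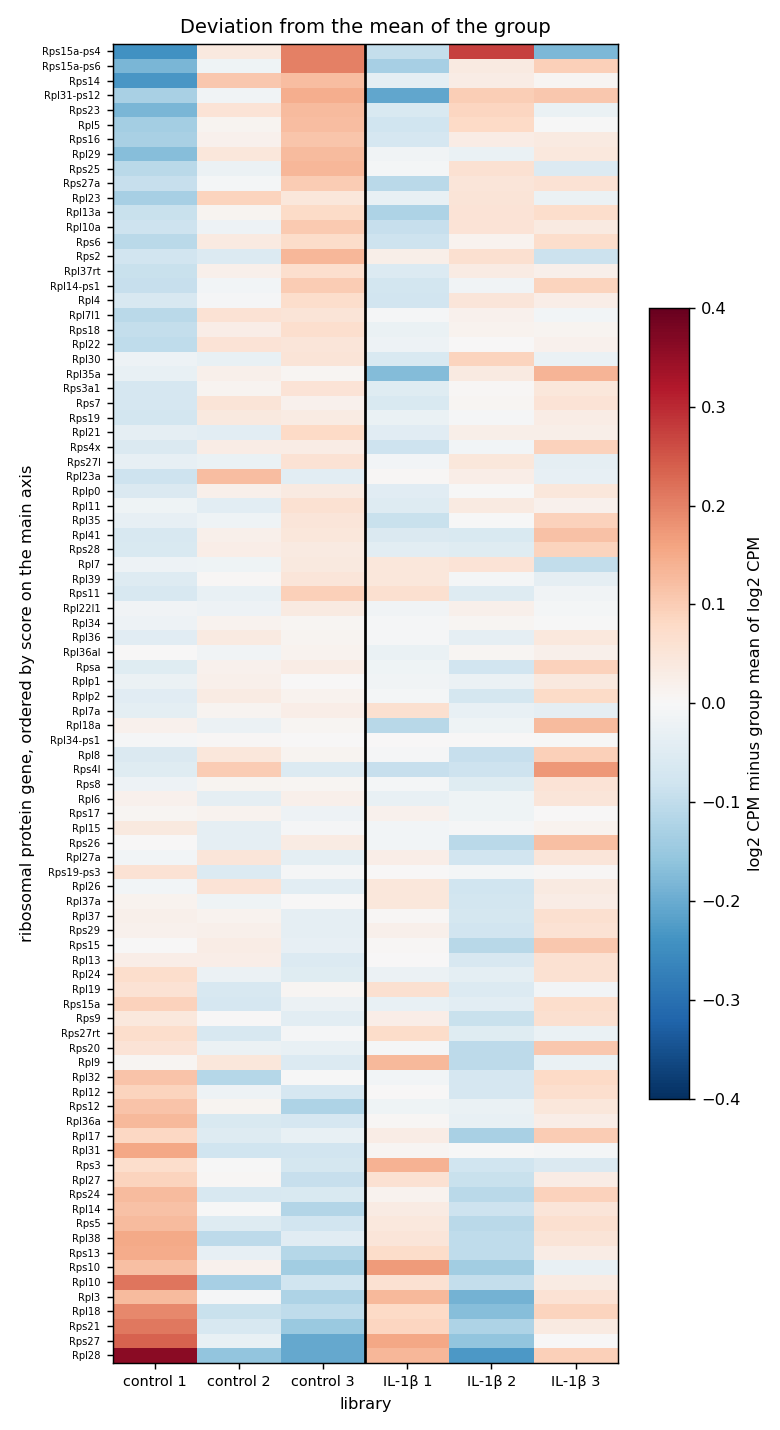
Colour shows the deviation of each tested ribosomal protein gene (rows) in each library (columns) from its group mean, in log2 CPM, with rows ordered by their score on the leading axis. Rpl28 at the bottom is high in control 1 and low in IL-1β 2, and Rps14 near the top is low in control 1.

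As a share of all counts, the members held 4.12, 4.14 and 4.29% in controls (4.18 ± 0.095%, SD, n = 3) and 4.27, 4.24 and 4.42% after IL-1β (4.31 ± 0.093%). Control 3 lay above IL-1β 1 and IL-1β 2, so the groups overlapped, and the means differed by 0.13 percentage points. With Rn45s out of the total, the shares were 4.80, 4.82 and 4.86% in controls and 4.90, 4.82 and 5.05% after IL-1β, again with overlap. Core large subunit genes held 2.31 to 2.39% of control counts and 2.36 to 2.46% of IL-1β counts, and core small subunit genes 1.48 to 1.54% and 1.53 to 1.62%. The ratio of large to small subunit counts was 1.56, 1.56 and 1.55 in controls and 1.51, 1.54 and 1.52 after IL-1β, with no overlap. Without Rps20, which was singled out after its values were seen, the ratio was 1.71 to 1.73 in controls and 1.70 to 1.72 after IL-1β, and the groups overlapped. Median log2 fold changes were 0.076 over the 46 large and 0.091 over the 31 small subunit genes, of which 1 and 2 rose.

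**Figure D4:**
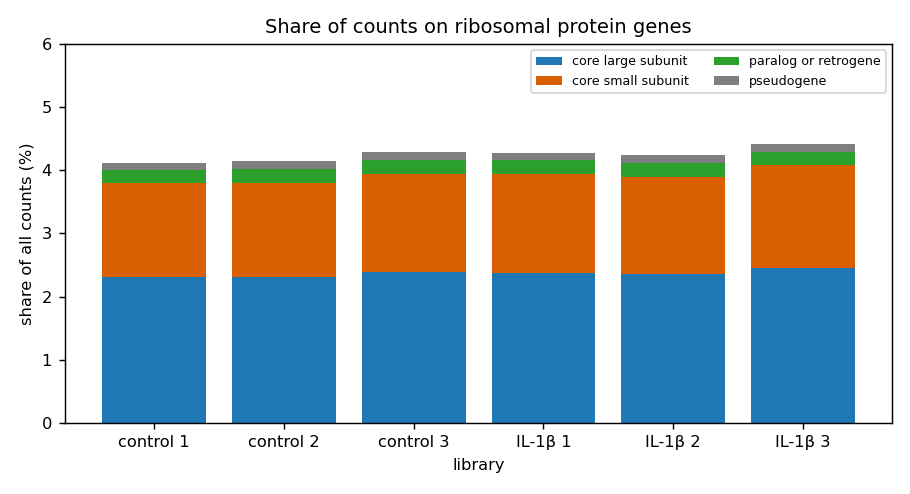
Stacked bars give the share of all counts (%, from 0) on ribosomal protein genes in each of the 6 libraries, by class. Totals run from 4.12 to 4.29% in controls and from 4.24 to 4.42% after IL-1β, with the large subunit as the widest band.

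The 4 most abundant core genes that were not called had log2 fold changes of 0.074 to 0.10. Rpl4, a large subunit protein, was at 1500, 1562 and 1646 CPM in controls and 1570, 1709 and 1685 CPM after IL-1β (log2 fold change 0.076, SE 0.059, adjusted p = 0.50). Rps9 of the small subunit was at 1426, 1384 and 1343 CPM and then 1510, 1396 and 1549 CPM (0.10, adjusted p = 0.32). Rpl22 of the large subunit was at 1186, 1324 and 1316 CPM and then 1333, 1355 and 1369 CPM (0.085, adjusted p = 0.44). Rps14 was at 813, 1029 and 1040 CPM and then 985, 1032 and 1015 CPM (0.074, adjusted p = 0.62), and without the low control 1 its log2 fold change was -0.034. Of these 4, only Rpl22 had groups that did not overlap, and without control 1 its log2 fold change was 0.035. Rpsa, a small subunit protein that also serves as a laminin receptor, was at 426, 445 and 450 CPM and then 466, 448 and 503 CPM (0.10, adjusted p = 0.38), and IL-1β 2 fell within the controls. Fau, which encodes a small subunit protein fused to a ubiquitin-like sequence, and Gnb2l1, the small subunit scaffold RACK1, did not pass either, with log2 fold changes of 0.065 and 0.11.

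The paralogs, which can replace a core protein or work outside the ribosome, held the lowest fold changes of the set. Rpl7l1, a relative of Rpl7, was at 99.6, 112 and 111 CPM in controls and 99.5, 101 and 99.2 CPM after IL-1β (log2 fold change -0.11, SE 0.077, adjusted p = 0.46). Rps27l, a p53 target related to Rps27, was at 249, 250 and 265 CPM and then 244, 254 and 240 CPM (-0.052, SE 0.065, adjusted p = 0.72). Both overlapped with control, and the interval of their difference ran from -0.27 to 0.054 and from -0.19 to 0.083. Rpl22l1, the paralog of Rpl22, was at 112, 112 and 116 CPM and then 119, 122 and 120 CPM, separated upward without passing (0.085, adjusted p = 0.55). The other 4 tested paralogs or retrogenes (Rpl36al, Rpl37rt, Rps27rt and Rps4l) had log2 fold changes of 0.034 to 0.18, and 0 of the 7 passed (1 was higher at an unadjusted p under 0.05, and DESeq2 passed none). Those of Rpl36al, Rpl37rt and Rps4l were negative when scaled by total counts.

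All 6 pseudogenes listed had counts and log2 fold changes above 0, except that Rpl14-ps1 was at -0.019 when scaled by total counts. None passed (1 was higher at an unadjusted p under 0.05, and DESeq2 passed none). Of the 75-nt stretches in their last 300 nt, 10.2% (Rps19-ps3) to 100% (Rpl34-ps1) are found exactly in other annotated genes. The share was 84.1% for Rpl31-ps12 and 35.4% for Rps15a-ps6. Reads counted for them may thus come from other genes, which was not tested. Rps15a-ps6 was at 109, 122 and 142 CPM in controls and 131, 147 and 154 CPM after IL-1β (0.21, SE 0.088, adjusted p = 0.12), with 0.32 (adjusted p = 0.019) without control 3 and 0.13 (adjusted p = 0.38) without control 1. Rps19-ps3 was at 43.0, 39.8 and 41.2 CPM and then 47.1, 46.9 and 47.2 CPM, separated upward (0.19, adjusted p = 0.25). Rps15a-ps4, named here after its values were seen, is known under the name Lethe as a long noncoding RNA induced by NF-κB signals in mouse fibroblasts. It was at 12.2, 14.9 and 16.6 CPM in controls and 14.9, 19.2 and 14.04 CPM after IL-1β (0.14, SE 0.17, adjusted p = 0.69). Its groups overlapped, and its interval, from -0.21 to 0.49, was the widest of the set.

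Ribosomal protein genes have many processed copies, so reads can match several places, and the sources used here do not say how such reads were counted. In the last 300 nt of the transcript, 52 of the 77 core genes had at least 1 stretch of 75 nt found exactly in another annotated gene, and 33 had over 50% of their stretches so. The share was 65.0% for Rps20 (2 other genes), 100% for Rps12 (22 other genes) and 52.2% for Rplp1 (3 other genes), and none of these other genes is listed in the table. The levels of all 3 are therefore uncertain, but these shares do not measure by how much. The 25 core genes with no shared stretch had a median log2 fold change of 0.076 and 0 called, and the 52 others a median of 0.081 and 3 called. The deposited table places Rps27rt inside Rps27 (chr3:90212667-90213648) and Rpl34-ps1 inside Rpl34 (chr3:130726827-130730337), on the same strand, while RefSeq (GRCm38.p6) places Rps27rt on chromosome 9 and Rpl34-ps1 on chromosome 6. Rps27 shared 100% of its stretches and Rpl34 14.2%, and how the reads of each pair were divided is uncertain. Rpl34 had 7345, 7892 and 6975 counts in controls and 6817, 7663 and 7862 after IL-1β. Rpl34-ps1 had 6951, 7338 and 6513, then 6463, 7188 and 7416, lower by a similar proportion in every library. Whether the same reads were counted for both genes was not tested. Such reads would enter repeatedly into the 90 tested members, the 24 separated upward, the share of counts and the sums below. Summed, Rps27 and Rps27rt were at 255, 223 and 217 CPM in controls and 286, 250 and 264 CPM after IL-1β (0.20, SE 0.074, adjusted p = 0.075). When 9 core genes were summed with their listed copies, 3 of 80 members rose, and these were again Rps20, Rps12 and Rplp1.

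A TOP-like motif, which had no part in choosing the members, was looked for at the start sites. The letters CTTTC or CTTTTC were sought from 15 bases before to 30 bases after the RefSeq start (GRCm38.p6). On the strand of the gene they were present in 22 of the 57 core genes with a promoter entry (38.6%), against 8.3% of 27025 genes and 5 of 68 mitochondrial ribosomal protein genes (7.4%). On either strand, 40.3% of core promoters and 13.8% of all promoters of the same length held them. The sequences below show 30 bases with 15 before the start, and are printed for Rps12 as a member that rose, for the stalk gene Rplp2, for Rps27, Rpl38 and Rpl28 as genes called without control 1, for Rpl15 as a core gene near 0, and for Rpl7l1 as the lowest paralog, which has no match. Capitals mark the motif.
Rps12 (chr10:23787195-23787224, minus strand): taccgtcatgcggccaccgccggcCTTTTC
Rplp2 (chr7:141447636-141447665, plus strand): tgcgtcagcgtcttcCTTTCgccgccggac
Rps27 (chr3:90213634-90213663, minus strand): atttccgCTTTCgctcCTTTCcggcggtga
Rpl38 (chr11:114668565-114668594, plus strand): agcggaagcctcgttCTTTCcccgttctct
Rpl28 (chr7:4792950-4792979, plus strand): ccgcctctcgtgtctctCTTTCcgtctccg
Rpl15 (chr14:18270972-18271001, minus strand): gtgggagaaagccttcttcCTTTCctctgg
Rpl7l1 (chr17:46782642-46782671, minus strand): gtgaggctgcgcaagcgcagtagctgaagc

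The median log2 fold change was 0.086 over the 22 core genes with it and 0.078 over the 35 without, of which 1 (Rps12) and 0 rose. Rps20 and Rplp1, the other members that rose, had no promoter entry and are in neither group. Rpl15, with the motif at its start, was at 246, 233 and 238 CPM in controls and 236, 237 and 240 CPM after IL-1β (log2 fold change -0.0090, SE 0.065). Rpl38 was at 236, 198 and 206 CPM and then 251, 226 and 251 CPM (0.19, SE 0.075, adjusted p = 0.11). A match describes these letters only, and the absence of a match says nothing of a factor.

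Around the ribosomal proteins, lists of genes that make, use or regulate ribosomes were examined. Of 269 distinct tested genes on these lists that are not members, 9 rose and 3 fell, beside 6.97% and 6.44% of all genes. Without the 77 mitochondrial ribosomal protein genes, 8 of 192 rose and 2 fell, and the lists differed in their shares. With control 3, IL-1β 1 or IL-1β 2 left out, the number that rose was 5, 4 and 5, and with total counts 5 rose and 7 fell. The lists were made with earlier results of these data known.

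Among the other mRNAs with a TOP tract, 3 of 24 (12.5%) rose and 0 fell (median 0.072), beside the 6.97% of all genes that rose, and DESeq2 called 2. They were Pabpc1, the cytoplasmic poly(A)-binding protein (0.27, SE 0.065, adjusted p = 0.0055, lost at 0.072 without IL-1β 1), Npm1, a nucleolar chaperone (0.19, adjusted p = 0.029), and Snhg6, a snoRNA host gene (0.74, adjusted p = 0.0029). Snhg6 was at 98.0, 45.0 and 53.9 CPM in controls and 112, 93.9 and 122 CPM after IL-1β. Control 1 lay inside the treated range, and the log2 fold change was 1.15 without it, and the adjusted p was 0.053 without IL-1β 3 and 0.20 with DESeq2. Of 36 initiation factors 1 rose (Pabpc1, 2.78% of the list) and 0 fell, with a median of 0.042. Of 12 elongation, termination and recycling factors 0 passed, with a median of 0.063 (0 also at an unadjusted p under 0.05). The elongation factor genes Eef1a1 and Eef2 were at 0.081 and -0.038.

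Ribosome biogenesis factors counted 3 higher (3.70%) and 1 lower of 81 (median 0.073), beside 6.97% of all genes higher and 6.44% lower. Rcl1, which acts in maturation of small subunit rRNA, was at 270, 284 and 248 CPM in controls and 334, 335 and 352 CPM after IL-1β (log2 fold change 0.35, SE 0.067, adjusted p = 0.00050). Its groups did not overlap, and it passed in all 14 alternative settings run for it. Npm1 and the RNA helicase gene Ddx21 (0.18, adjusted p = 0.048) rose in the full data. Npm1 lost its call without control 1, control 2, control 3, IL-1β 1 or IL-1β 2 (adjusted p up to 0.10), and Ddx21 without any of the 6 (up to 0.14). Las1l, needed to process the spacer of the large subunit rRNA, fell by 0.31 (adjusted p = 0.0063, and 0.063 without IL-1β 3). Of 14 RNA polymerase I genes 0 passed (3 were higher at an unadjusted p under 0.05), with a median of 0.13. Ribosome-associated quality control genes had a median of 0.045 and 0 of 14 called (1 higher and 1 lower at an unadjusted p under 0.05). DESeq2 also called 0 in the elongation, RNA polymerase I and quality control lists.

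Of 24 regulators that act on TOP mRNAs or on ribosomal protein transcription, 3 rose (12.5%) and 1 fell (median 0.14), again beside 6.97% of all genes that rose. Myc, a transcription factor that drives ribosome production, was at 40.2, 23.7 and 33.7 CPM in controls and 48.5, 46.9 and 47.4 CPM after IL-1β. The treated samples lay close together above all controls (log2 fold change 0.55, SE 0.13, adjusted p = 0.0052). Eif4ebp2, a translation repressor under mTORC1, was at 110, 121 and 124 CPM and then 95.7, 98.0 and 67.2 CPM, below all controls (-0.45, SE 0.10, adjusted p = 0.0040). Both passed with each sample left out, but Eif4ebp2 was at -0.28 (adjusted p = 0.046) without IL-1β 3 and Myc at 0.37 (adjusted p = 0.046) without control 2. Rps6kb1, the kinase that phosphorylates Rps6, rose by 0.25 (adjusted p = 0.031), lost without control 2, control 3, IL-1β 2 or IL-1β 3 (up to 0.18). Sesn2, an inhibitor of mTORC1 under stress, rose by 0.94 from a mean of 2.80 to 5.39 CPM (adjusted p = 0.048), lost on leaving out any sample but control 1 (up to 0.20). Mtor (0.070), Larp1 (0.13) and Eif4ebp1 (0.0050) did not pass. Transcript levels do not show the activity of mTORC1.

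The mitochondrial ribosomal proteins are a separate set encoded in the nucleus for the ribosome of another compartment. Their median log2 fold change was 0.00071 over 77 genes, with 39 above 0, and their standard deviation was 0.14, against 0.078 (median) and 0.060 (standard deviation) for the 77 core cytosolic genes with 73 above 0. Their standard errors had a median of 0.10, against 0.067. Mrpl14 fell by 0.59 (SE 0.10, adjusted p = 0.00019), from 68.1, 73.1 and 56.6 CPM to 46.9, 40.7 and 44.3 CPM, with no overlap. Mrpl38 rose by 0.32 (SE 0.081, adjusted p = 0.0071), from 97.5, 96.5 and 85.2 CPM to 126, 113 and 111 CPM, and its adjusted p was 0.059 without control 3 and 0.069 without IL-1β 1. The difference between both sets was not tested.

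**Figure D5:**
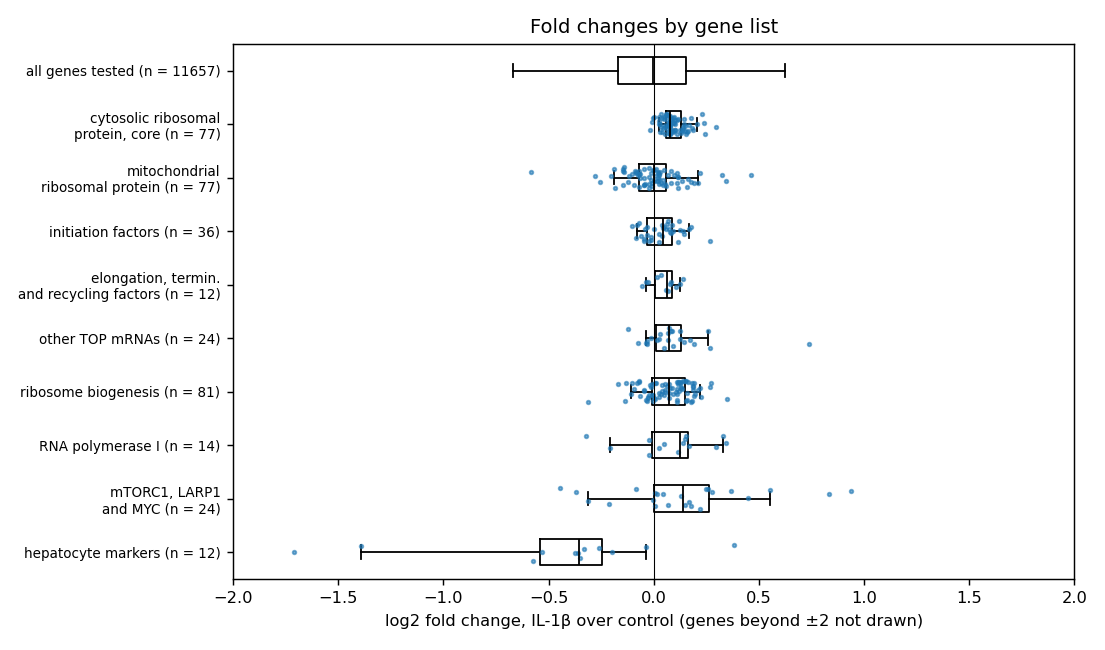
Log2 fold changes (x axis, IL-1β over control) by gene list, with a point for each gene except in the row of all genes, and boxes for quartiles, medians and the 5th to 95th percentiles. The core cytosolic ribosomal protein genes form a narrow cluster with a median of 0.078 beside 0.00071 for the mitochondrial set, and hepatocyte markers lie mostly below 0.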

How the data were processed

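The authors aligned the reads with Bowtie2 (mm10/GRCm38) and normalized with edgeR (TMM and CPM), per the labels. The counting tool is not given in the sources used here. The deposited table holds raw counts per gene, used here, and log2 normalized values, group averages, a ratio (fold change) and a p-value made by the authors, which were not used. Raw counts were fitted in R 4.3.3 with edgeR 4.0.16 (filterByExpr, TMM, quasi-likelihood test without pairing, Benjamini-Hochberg adjustment, threshold 0.05). The method was tested on simulated data whose changes were larger than those of the members, so that test does not cover changes of their size. CPM are counts scaled to a common TMM-adjusted library size. The floor of 3 counts equals 0.270 to 0.315 CPM by total counts, depending on the library, and covers counting error only. DESeq2 1.42.0, other scalings and filters, a replicate block and leaving out each sample were alternatives, and the summing of copies was added after the data were seen. GENCODE M21 transcripts gave shared stretches and RefSeq the start sites. Members and lists were chosen with earlier results of these data known. Genes were named by a rule: core members past the threshold, the stalk genes and Rpsa, the 4 most abundant core members that did not pass, all paralogs tested, 3 pseudogenes, and in each pathway list at most 4 genes past the threshold plus a few regulators. Some genes that these choices cover are not reported here.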

Additional observations from a re-analysis of the deposited data

How the results depend on the processing

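Of the 90 tested members, 3 rose in the analysis as reported. The count was 1 with total counts, 1 with the upper quartile and 1 at an adjusted p under 0.01. It was 7 with no filter (92 members tested) and between 1 and 10 with 1 sample left out. For lower members it was 0 in every setting. Of all genes, 5.68% rose with total counts, 6.29% with the upper quartile and 5.51% with no filter, beside 1.11, 1.11 and 7.61% of members. The median of the members moved from 0.077 to 0.023 with total counts and 0.049 with the upper quartile, and lay between 0.068 and 0.099 with 1 sample left out. Members separated upward numbered 9 and downward 3 with total counts. Pathway genes that rose numbered 5 with total counts, 5 with the upper quartile and 4 to 9 with 1 sample left out, and 7 fell with total counts. With the replicate number as a block, 9 members rose. Deviations of samples with the same number correlated by 0.067, 0.019 and 0.00098 over all genes tested. Samples with unlike numbers were not compared, so these values do not show whether the numbers pair the samples. Signs turned with total counts for Rpl36al (-0.020), Rpl37rt (-0.018), Rps4l (-0.019) and Eif4ebp1 (-0.049, and -0.024 with the upper quartile). With 1 sample left out, the lowest and highest values were -0.034 and 0.13 for Rps14, -0.0075 and 0.070 for Rpl37rt, -0.054 and 0.092 for Rps4l, -0.092 and 0.18 for Mtor, -0.024 and 0.053 for Eif4ebp1, and -0.0072 and 0.24 for Rps15a-ps4. The cause of these moves was not tested. A fit without a sample has fewer samples, and 3 a group limit what size of change could be seen.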
